A study of Mus musculus with 16 samples.

Results

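Hippocampus of 12-month-old mice given Δ9-tetrahydrocannabinol (THC) was compared with hippocampus of 2-month-old mice given vehicle, which asks what still separates old, drug-treated tissue from young, untreated tissue. The 8 arrays of the comparison were taken by their source labels from 16 arrays in all: 5 of old THC mice and 3 of young vehicle mice. The other 8 arrays, 5 of 12-month-old vehicle mice and 3 of 2-month-old THC mice, served the shared estimate of spread and are set beside the main values. All mice were male C57BL/6J with no genetic change named, and all were treated for 28 days. THC was given at 3 mg per kg per day by a minipump under the skin, and vehicle mice received the solvent, a mix of ethanol, cremophor and saline. Treatment had ended before the behaviour tests of days 33 to 41, and tissue was taken on day 46, so no animal was on the drug at that time. Age and drug both differ between the groups, and their parts cannot be told apart in this comparison alone. The labels list separate samples, while 3 to 5 mice a group are stated for the study without saying how mice and arrays match, so p-values measure only the spread between these samples, which may be technical.

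THC acts in the brain mainly through the cannabinoid receptor encoded by Cnr1, which sits on nerve terminals and dampens transmitter release. The hippocampus forms new memories, and its neurons switch on immediate early genes such as Fos and Arc within minutes of activity. The ageing mouse brain is known for higher expression of complement genes, whose products tag material for removal by microglia.

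On the compared arrays 41.1% to 45.5% of the probes had a detection p under 0.05, and precision is limited by how few arrays there are. The marker genes of dentate granule cells Prox1 and C1ql2 were detected on all 16 arrays. The arrays lay on 4 slides, and 2 of these held both groups: slide 1 with old THC array 1 and young vehicle array 1, and slide 4 with old THC array 5 and young vehicle array 3. The other 3 old THC arrays shared slide 3, which held no young vehicle array. The first principal component, the main axis of spread between the 16 arrays, held 32.3% of the variance. On it the 4 arrays of slide 1 lay at −50.2 to −33.7, and all others at −0.87 to 31.3. The main fit held no term for the slide. Some arrays stood apart in genes of neighbouring tissue. The mean log2 intensity of 16 choroid plexus genes was 8.05 and 8.35 on old THC arrays 1 and 5 and 9.04 on young vehicle array 2, against 5.45 to 5.70 on the remaining old THC arrays and 5.87 to 6.62 on the remaining young vehicle arrays. Young vehicle array 2 also had the lowest dentate granule cell mean of the 16 arrays, at 5.77. Young THC array 1 was high in thalamus markers at 8.64 and in midbrain dopamine neuron markers at 8.29. Values without the 3 arrays that were high in choroid plexus genes are given beside the results below. In bulk tissue, fewer cells of a type and less RNA per cell cannot be told apart.

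A single gene, Mocs1, passed the test between old THC and young vehicle hippocampus, and it was higher in old THC tissue. Mocs1 makes an early intermediate of the molybdenum cofactor, which a few oxidases such as sulfite oxidase need. limma with Benjamini-Hochberg adjustment called 1 of 22625 probes at an adjusted p under 0.05, or 0.00442%. At an unadjusted p under 0.05 there were 1014 probes (4.48%), where chance alone gives 1131, with 517 higher (2.29%) and 497 lower (2.2%). That count depended on the fit. It was 2371 with slide as a fixed block and 1684 with slide as a random block. With 1 array left out it ran from 774 (without old THC array 2) to 1614 (without old THC array 1). Taken as 1 probe for each of 12020 genes, 20 genes differed by more than 1 on the log2 scale, and the median difference was −0.02. In the 8 arrays outside the compared groups, old vehicle against young THC, limma found no probe past the threshold (0 of 22625, 0%), while 2061 (9.11%) had an unadjusted p under 0.05.

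Mocs1 had log2 intensities of 8.03, 7.97, 7.84, 7.87 and 8.04 on the 5 old THC arrays, against 7.24, 7.03 and 7.20 on the 3 young vehicle arrays. The groups did not overlap, and the gap between them was larger than the range within either. The group means were 7.95 ± 0.09 in old THC and 7.16 ± 0.11 in young vehicle hippocampus (SD, n = 5 and 3), and Mocs1 rose by 0.79 ± 0.11 (SE), or 1.73-fold, with a limma adjusted p = 0.0411. The exact two-sided permutation test over the 8 arrays gave p = 0.0179, the smallest that 5 against 3 arrays can give. Mocs1 was picked from all probes on these same arrays, so this p is no separate test of it. Within slide 1 the difference was 0.79 and within slide 4 it was 0.84. Old vehicle arrays lay at 7.75 to 7.95 and young THC arrays at 7.23 to 7.34, so all 10 old arrays were above all 6 young arrays. Old THC minus old vehicle was 0.08, and old vehicle minus young vehicle was 0.71. These comparisons share arrays with the main one. The call was lost when any 1 of the 16 arrays was left out, when the smallest adjusted p over all probes was 0.0615 (without old vehicle array 5) to 0.757 (without young vehicle array 2). Without the 3 arrays high in choroid plexus genes, Mocs1 differed by 0.67 and did not pass. With the slide as a fixed block 2 probes passed (0.00884%), Mocs1 at 0.85 among them.

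**Figure D1:**
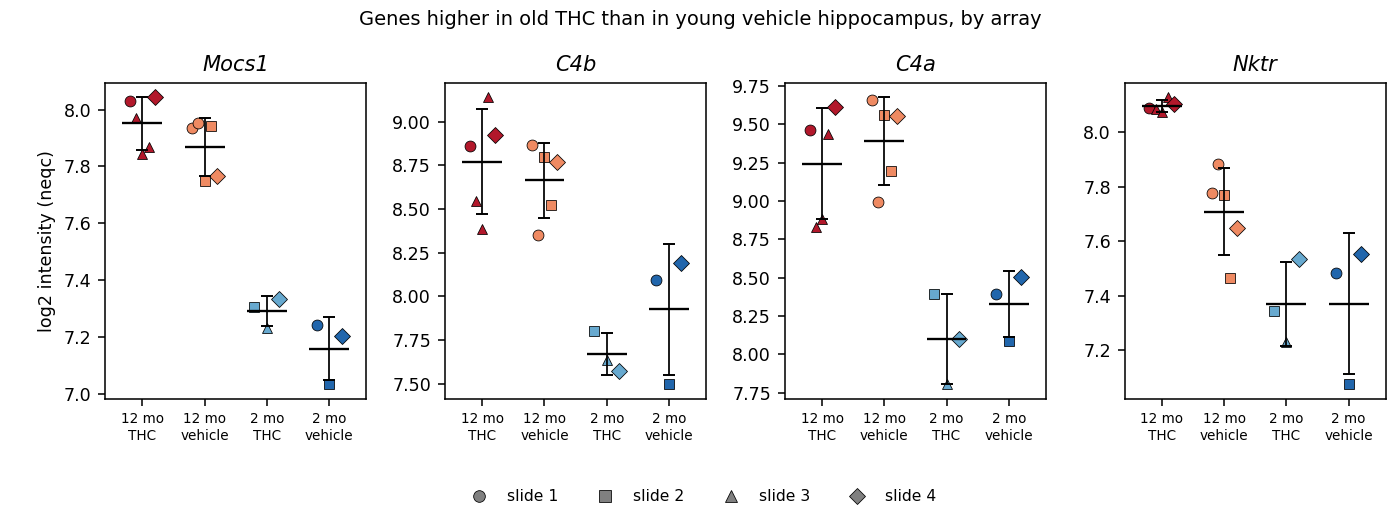
Log2 intensity (neqc) of Mocs1, C4b, C4a and Nktr on each of the 16 arrays, in the groups 12-month THC, 12-month vehicle, 2-month THC and 2-month vehicle. Each point is an array, its shape gives the slide, and lines and bars are the mean and SD. Every old THC array is above every young vehicle array in each panel, and for Nktr every old THC array is also above the old vehicle arrays.

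The 11 further genes with the smallest p among those higher in old THC tissue did not pass, with adjusted p from 0.377 to 0.996, and are given as values only. Nktr, a cyclophilin-related surface protein first described in natural killer cells, stood at 8.09, 8.09, 8.07, 8.13 and 8.10 on old THC arrays, against 7.48, 7.07 and 7.55 on young vehicle arrays. Its old THC values were close together and above the other 11 arrays, with old vehicle at 7.47 to 7.88. It was higher by 0.73 ± 0.13 (SE, limma adjusted p = 0.377), and the other probes of the gene gave −0.12 and 0.42, so both the direction and the size rest on the probe. Galanin (Gal), a neuropeptide, was detected on all 5 old THC arrays at 5.06 to 6.86 and on 0 of 3 young vehicle arrays, which lay at 4.33 to 4.78. It was therefore at least 2.04-fold higher in old THC tissue by the arrays' lowest detected signal, although young THC arrays also reached 4.95 to 6.27.

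Igfbp5, a binding protein for insulin-like growth factors, had 11.84 to 12.19 on old THC arrays and 11.28 to 11.62 on young vehicle arrays, a difference of 0.62 ± 0.15 (SE). Old vehicle minus young vehicle was 0.62 as well, and its other probes gave 0.10 and 0.58. Micall1, which works in endocytic recycling, differed by 0.51, the proteoglycan gene Gpc5 by 0.57, and Btg1, an inhibitor of proliferation, by 0.56. The chromatin regulator Asxl2 differed by 0.67, Dhdh, a dihydrodiol dehydrogenase, by 0.76, and Thoc2, a subunit of the mRNA export complex THO, by 0.55. In each of these the 5 old THC arrays lay above the 3 young vehicle arrays. A further probe went the other way for Asxl2 (−0.10) and for Gpc5 (−0.09). Genes are chosen here for a small p, so the separation of the groups follows from the choice: of all 12020 genes, 157 (1.31%) had every old THC array above every young vehicle array. All 12 genes with the smallest p were separated in this way, so being higher in old THC within slide 1 and within slide 4 follows from it. In 11 of 12 the old vehicle mean lay between the old THC and young vehicle means, which choosing genes for a wide gap favours.

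Among genes lower in old THC tissue, Nptx2 had the smallest p. Nptx2 encodes a pentraxin that neurons secrete at excitatory synapses and that activity induces. It stood at 8.34, 8.67, 8.26, 9.36 and 8.69 on old THC arrays, against 9.49, 9.78 and 9.97 on young vehicle arrays. The groups did not overlap, although old THC array 4 came near the lowest young vehicle array. The difference was −1.08 ± 0.24 (SE), or 2.12-fold lower, with a limma adjusted p = 0.863, so it did not pass. Old vehicle arrays, at 8.46 to 8.93, were as low, and old THC minus old vehicle was 0.00.

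**Figure D2:**
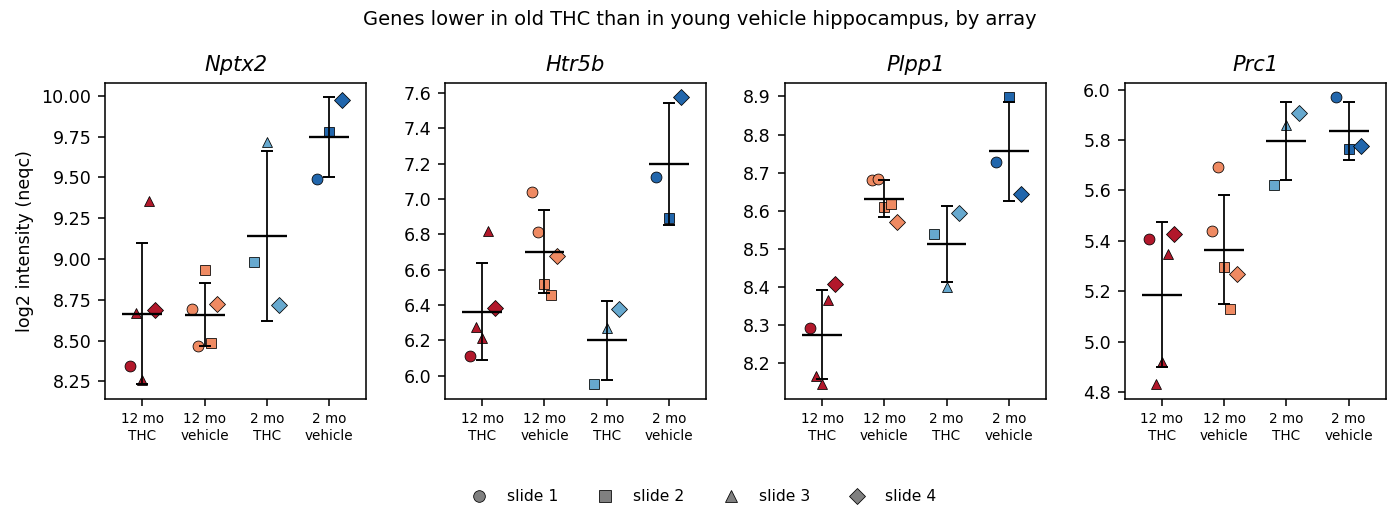
Log2 intensity (neqc) of Nptx2, Htr5b, Plpp1 and Prc1 on each of the 16 arrays, in the groups 12-month THC, 12-month vehicle, 2-month THC and 2-month vehicle. Points are arrays with the slide as shape, and lines and bars are the mean and SD. Old THC arrays lie below young vehicle arrays in each panel, while for Htr5b the 2-month THC arrays are low as well.

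Htr5b, a serotonin receptor gene, had 6.11, 6.28, 6.21, 6.82 and 6.39 on old THC arrays, against 7.12, 6.89 and 7.57 on young vehicle arrays. The difference was −0.83 ± 0.19 (SE, limma adjusted p = 0.863). Young THC arrays were also low, at 5.95 to 6.38, while old vehicle arrays lay at 6.46 to 7.04. On the 8 arrays outside the comparison, old vehicle minus young THC was 0.50, opposite to the main difference. Plpp1, a phospholipid phosphatase, was at 8.14 to 8.41 on old THC arrays, against 8.64 to 8.90 on young vehicle arrays, and its old vehicle arrays lay between, at 8.57 to 8.68.

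The other genes of the 12 with the smallest p in this direction differed by −0.65 to −0.42. They were Prc1, a spindle protein of cell division (−0.65), Cacng7, an auxiliary subunit of AMPA receptors (−0.62), Igsf21, a synaptic adhesion protein (−0.64), the core histone gene H2ac24 (−0.63), the lipid droplet genes Tmem159 (−0.54) and Plin2 (−0.46), the microtubule-severing gene Spast (−0.46), the focal adhesion gene Lims1 (−0.57) and Efl1, a GTPase of ribosome assembly (−0.42). Lims1 and Plin2 were detected on 0 of 5 old THC arrays and on 2 of 3 young vehicle arrays, so they were at least 1.14-fold and 1.02-fold lower. The second probe of Tmem159 gave 0.15 and the 3 others of Spast −0.30 to 0.02. Across all genes, 295 of 12020 (2.45%) had every old THC array below every young vehicle array. All 12 genes were separated in this way, so being lower in old THC within both slides follows from it. In 10 of 12 the old vehicle mean lay between, which the choice of genes favours as well.

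Immediate early genes were lower in old THC hippocampus as a group, by their list median. Of 15 measured, 14 were lower, where 54.4% of all genes were, with a median of −0.61 against −0.02 for all genes. Of the 15, 6 were lower with an unadjusted p under 0.05, where 2.34% of all genes were. None passed the adjusted threshold over all probes. The mean of the list was 8.36, 8.55, 8.94, 8.81 and 8.79 on old THC arrays, against 9.49, 9.12 and 9.11 on young vehicle arrays. The groups did not overlap, and old vehicle arrays spread from 8.57 to 9.56 across both. In 5 of the 15 every old THC array lay below every young vehicle array, where 2.45% of all genes did so. They were Nptx2, Fosb, Egr4, Egr2 and Arc, which are named here after their values were seen. Of the list's genes with a single promoter in the sequence table, with a chromosome left out, Fosb, Egr4 and Fos had the smallest p. Their promoters are printed for that reason. They are RefSeq sequences of GRCm38.p6, from 250 bases before to 50 after the start, 5′ to 3′ on the gene's strand: Fosb at chr7:19309996-19310295 (−), Egr4 at chr6:85513540-85513839 (−) and Fos at chr12:85473640-85473939 (+). Capitals mark TGACG or its reverse complement CGTCA, the half-site that the activity-regulated factor CREB is known to bind.
Fosb: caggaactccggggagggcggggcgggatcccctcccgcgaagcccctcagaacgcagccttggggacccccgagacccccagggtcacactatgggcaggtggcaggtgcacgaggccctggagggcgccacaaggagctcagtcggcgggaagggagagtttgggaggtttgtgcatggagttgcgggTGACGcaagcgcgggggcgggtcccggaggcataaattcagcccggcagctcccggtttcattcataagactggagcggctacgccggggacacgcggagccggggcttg
Egr4: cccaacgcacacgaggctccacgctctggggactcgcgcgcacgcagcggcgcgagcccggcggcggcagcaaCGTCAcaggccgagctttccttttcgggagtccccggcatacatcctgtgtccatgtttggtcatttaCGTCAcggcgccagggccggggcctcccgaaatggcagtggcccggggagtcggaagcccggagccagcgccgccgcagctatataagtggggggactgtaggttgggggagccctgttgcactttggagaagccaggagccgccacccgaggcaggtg
Fos: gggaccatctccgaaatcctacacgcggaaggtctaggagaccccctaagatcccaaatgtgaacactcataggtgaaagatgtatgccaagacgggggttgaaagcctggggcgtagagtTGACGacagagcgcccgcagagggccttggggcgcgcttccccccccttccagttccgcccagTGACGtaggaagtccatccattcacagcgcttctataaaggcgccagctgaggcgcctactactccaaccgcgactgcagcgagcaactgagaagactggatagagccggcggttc
Of 16 promoters for 11 list genes in that table, 10 hold this half-site on either strand, against 20.8% of 32851 promoters of the same length. List genes on the chromosome left out are not among the 11. The 16 are not independent, since 5 belong to Egr2 and 2 to Homer1. Counted by gene, 8 of 11 hold it in at least 1 promoter. A match is a description of the letters and not a measured binding site.

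Fosb, a subunit of the AP-1 transcription factor, had log2 intensities of 6.02, 6.02, 6.37, 6.72 and 5.96 on old THC arrays, against 6.90, 6.94 and 7.12 on young vehicle arrays, a difference of −0.77 ± 0.24 (SE). Arc, which regulates AMPA receptor uptake at synapses, had 9.30, 9.05, 10.28, 9.95 and 10.18 on old THC arrays, against 11.48, 10.30 and 10.62 on young vehicle arrays. Its groups all but touched, and the difference was −1.05 ± 0.44. The growth response factor Egr2 had 5.94 to 6.74 on old THC arrays, against 6.81 to 7.57 on young vehicle arrays, and its relative Egr4 differed by −0.64 ± 0.26. Fos, the partner of Jun in AP-1, had 7.91 to 8.85 on old THC arrays, against 8.65 to 9.52 on young vehicle arrays, so its groups overlapped. Jun was the only member with a higher mean in old THC tissue, by 0.10 ± 0.23.

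The size of the immediate early gene difference depended on the slide. The list median was −1.23 within slide 1 and −0.32 within slide 4, and −0.41 without the 3 arrays high in choroid plexus genes. Fosb and Nptx2 were lower by like amounts in both slides, −0.88 and −1.16 for Fosb and −1.15 and −1.29 for Nptx2, whereas Fos gave −1.57 and −0.04. Old THC minus old vehicle gave a list median of −0.34 and old vehicle minus young vehicle −0.13, and both share arrays with the main comparison. On the 8 other arrays, old vehicle minus young THC gave −0.24. Markers of other neurons are given beside this. CA1 pyramidal cell markers had a median of −0.30, with 5 of 6 lower, and were below 0 in 31 of 31 alternatives. Their mean ran from 8.56 to 8.89 on old THC arrays and from 8.75 to 9.25 on young vehicle arrays. Slc17a7, the vesicular glutamate transporter of pyramidal cells, differed by −0.36 with no overlap. Neocortex markers had a median of −0.12, with 7 of 12 lower, where 54.4% of all genes were lower. Of these, 2 had an unadjusted p under 0.05, where 2.34% of all genes had one in that direction. Their median was −0.79 within slide 1, −0.27 within slide 4 and 0.13 without young vehicle array 1. Their mean ran from 8.63 to 9.20 on old THC arrays and from 8.91 to 9.35 on young vehicle arrays. The part of these markers in the result was not tested.

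**Figure D3:**
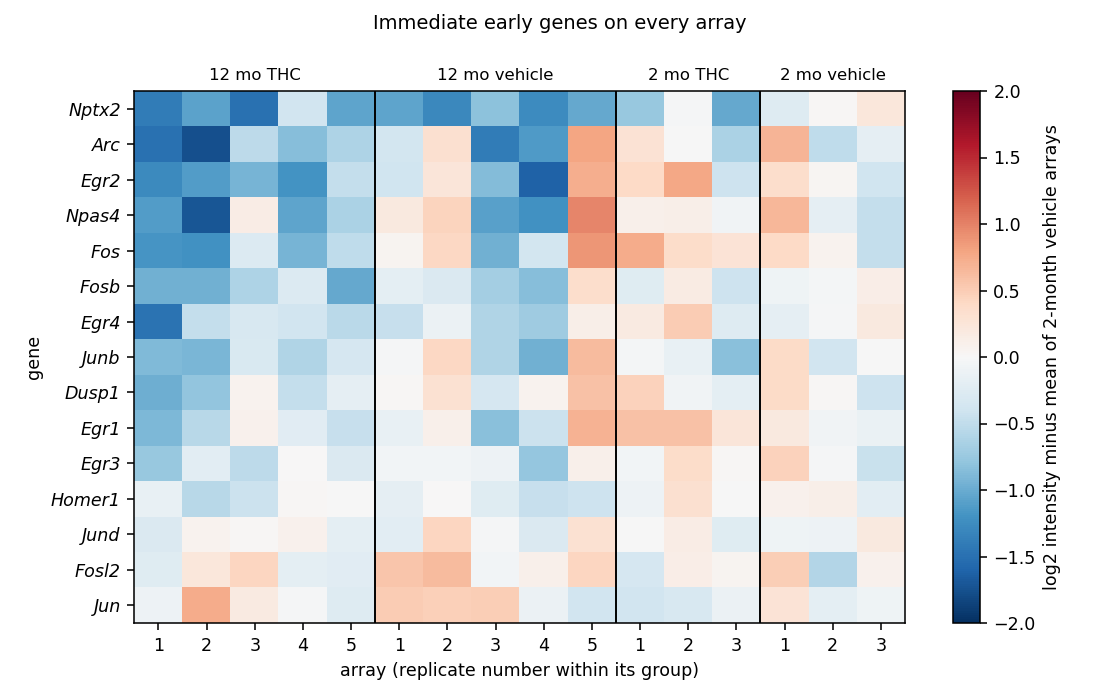
Log2 intensity of the 15 measured immediate early genes on each of the 16 arrays, as the difference from the mean of the 2-month vehicle arrays (colour scale from −2 to 2). Rows are genes and columns are arrays in the groups 12-month THC, 12-month vehicle, 2-month THC and 2-month vehicle. Most genes are blue on the 12-month THC arrays, while the 12-month vehicle arrays range from blue on arrays 3 and 4 to red on array 5.

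Complement genes differed mainly through C4a and C4b, which are genes of the complement C4 family. C4a had 9.46, 8.83, 8.88, 9.44 and 9.61 on old THC arrays, against 8.39, 8.09 and 8.51 on young vehicle arrays, and C4b had 8.86, 8.55, 8.39, 9.14 and 8.93, against 8.09, 7.50 and 8.19. Neither gene overlapped between the groups. C4a was higher by 0.92 ± 0.21 and C4b by 0.85 ± 0.19 (SE), both with a limma adjusted p = 0.863. The second C4a probe gave 1.13 and the other C4b probes 0.28 to 0.33. The genes are near-identical copies, so a probe may read both. Old vehicle arrays were as high, at 8.99 to 9.66 for C4a, and old THC minus old vehicle was −0.15 for C4a and 0.11 for C4b. Without the 3 arrays high in choroid plexus genes the differences were 0.60 and 0.55.

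The other complement genes differed in both directions. The 11 measured members had a median of 0.08, with 0.56 within slide 1 and 0.50 within slide 4, and C4a and C4b were the 2 with an unadjusted p under 0.05, where 1.77% of all genes were higher with one. Of the 9 members apart from C4a and C4b, 4 were higher and 5 lower, with a median of −0.03 and 0 at an unadjusted p under 0.05. C2, the protease that pairs with C4, had 5.80 to 6.93 on old THC arrays, against 5.42 to 5.91 on young vehicle arrays, and differed by 0.57 ± 0.30. The C1q chain genes, which start the classical pathway and are made by microglia, differed by 0.24 (C1qa), −0.06 (C1qb) and −0.03 (C1qc). The regulators Serping1 and Cd55 differed by 0.25 and −0.23.

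Few genes ordered all arrays by age whatever the treatment. In 7 of 12020 genes (0.0582%) all 10 old arrays lay above all 6 young arrays, and in 5 genes (0.0416%) they lay below. The higher ones were Mocs1, C4a, C4b, Iqsec3, Kdm2a, Mapkbp1 and Rnf207, and the lower ones Cdca8, Gamt, Gpr17, Pbk and Tfrc, all picked for this pattern, so no test is given. Iqsec3, an exchange factor at inhibitory synapses, ran from 11.16 to 11.48 on old arrays and from 10.78 to 11.08 on young arrays. Gpr17, a receptor of maturing oligodendrocyte precursors, ran from 8.54 to 9.23 on old arrays and from 9.27 to 9.60 on young arrays. Tfrc, the transferrin receptor of iron uptake, ran from 9.21 to 9.90 on old arrays and up to 10.17 on young arrays, which all lay above that range. Pbk and Cdca8 act in cell division. Pbk was detected on none of the 10 old arrays and at most at 5.59 on young arrays.

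Genes that set old THC arrays apart from all the other 11 arrays were 5 in number, with 2 above (0.0166%) and 3 below (0.025%). They were picked for this pattern from all 12020 genes, so no test is given, and chance is not excluded. Above were Nktr and Tac2, the neurokinin B gene. Tac2 was at 4.95 to 5.06 on old THC arrays, where it was detected on all 5, against 4.35 to 4.76 on young vehicle arrays with 0 of 3 detected. It lay near background, and over the alternatives its difference ran from −0.06 to 0.66. Below were Fbrs, the gene of fibrosin, at 5.78 to 6.01 against 6.03 to 6.12 on young vehicle arrays, Nr1i3, a nuclear receptor of drug metabolism, at 4.33 to 4.69 against 4.75 to 4.83, and 1 unnamed gene model. Nr1i3 was detected on 0 of 5 old THC arrays and on 1 of 3 young vehicle arrays.

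The same age gap was measured on the 8 arrays outside the main comparison, old vehicle against young THC, where the drug runs the other way. Both comparisons share the normalization, the probe filter and the estimate of spread for each probe, so their p-values are not independent. Choosing genes for a small p in one favours a small shared spread, and so a small p in the other. Of the 10 genes with the smallest p in each direction there, all 10 that were lower were also lower in old THC against young vehicle, at −0.49 to −0.06 with a median of −0.20, and 3 had an unadjusted p under 0.05. Those 3 were Pbk (−0.49), Gpr17 (−0.43) and Slc38a5, an amino acid transporter of vessels (−0.43). For comparison, 54.4% of all genes were lower. Of the 10 that were higher, 6 were higher and 4 lower in old THC against young vehicle, with a median of 0.04. An unadjusted p under 0.05 was found for 5 of these 10, of which 4 were higher and 1 was lower, where 1.77% of all genes were higher and 2.34% lower with such a p. C4a (0.92), C4b (0.85), Mocs1 (0.79) and Upk1b, a uroplakin gene (0.49), were the 4 higher ones. Dusp28, a phosphatase gene that is not among these 5, differed by −0.43 ± 0.22, against 1.02 on the other arrays. Its young THC arrays lay below its young vehicle arrays, at 5.98 to 6.48 against 7.13 to 7.33.

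**Figure D4:**
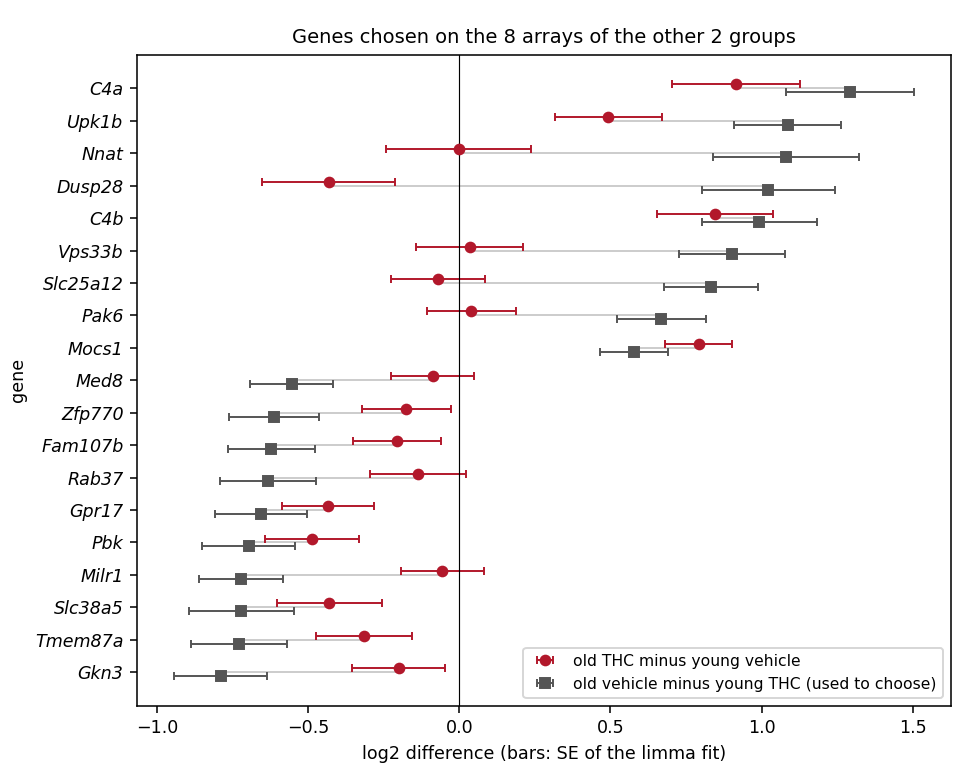
Log2 differences for the reported genes among the 10 with the smallest p in each direction in old vehicle minus young THC, which used 8 arrays. Red circles are old THC minus young vehicle on the other 8 arrays, grey squares are the difference used to choose the genes, and bars are SE of the limma fit. The 10 lower genes all lie left of 0 in both, while the higher genes split around 0 in red.

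Markers of blood were higher in old THC than in young vehicle tissue, and were higher still in old vehicle tissue. All 4 measured blood genes were higher, with a median of 0.69, and all 4 had an unadjusted p under 0.05, against 1.77% of all genes (these genes share red cells as their source). The hemoglobin gene Hbb-bs had 12.83, 12.06, 12.77, 12.17 and 12.49 on old THC arrays, against 11.55, 12.44 and 11.32 on young vehicle arrays. The groups overlapped through young vehicle array 2, and the difference was 0.70 ± 0.29 (SE, limma adjusted p = 0.996). Alas2, the heme synthesis enzyme of red cells, differed by 0.80 ± 0.34. The blood median ran from 0.45 (without young vehicle array 3) to 1.06 (without young vehicle array 2) when 1 array was left out. It was 1.08 for old vehicle minus young vehicle and −0.38 for old THC minus old vehicle, which share arrays with the main comparison. Old vehicle minus young THC gave 0.96.

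Choroid plexus markers had no stable direction. Of 16 measured, 15 were lower, with a median of −0.44, but the median was 1.36 within slide 1 and 2.55 within slide 4, and −0.30 without the 3 high arrays. It was 0.44 when young vehicle array 2 alone was left out. Ttr, the transthyretin gene of choroid plexus, had 13.76, 5.90, 7.90, 10.07 and 14.30 on old THC arrays, against 12.85, 14.48 and 11.36 on young vehicle arrays. It differed by −2.51 ± 1.88, within the spread of the arrays. Kl, the klotho gene, differed by −0.53 ± 0.77. Ependyma markers were lower for 8 of 10, with a median of −0.45 and within-slide medians of 0.32 and 1.02, and −0.03 without young vehicle array 2.

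Lists of hippocampal neuron markers differed in direction. The 7 dentate granule cell genes were all higher, with a median of 0.36, but the median was −0.10 within slide 1 and −0.07 within slide 4, and 0.15 without old THC array 2 to 0.60 without young vehicle array 3. Prox1, the dentate identity factor, had 7.29 to 8.12 on old THC arrays, against 5.74 to 7.66 on young vehicle arrays, where the lowest value was array 2. The CA1 median of −0.30 was −0.07 within slide 1, −0.53 within slide 4 and −0.08 without young vehicle array 3. Markers of CA3 and CA2 were lower for 8 of 10, with a median of −0.21. That median turned to 0.05 within slide 1, 0.25 within slide 4 and 0.05 with slide as a fixed block, and was −0.05 without young vehicle array 2. In that list 1 gene was higher at an unadjusted p under 0.05 (Prss35, 0.40), where 1.77% of all genes were. Of 12 inhibitory neuron markers 9 were higher, where 45.6% of all genes were, with a median of 0.18 that stayed above 0 in 31 of 31 alternatives. Of the 12, 2 were higher at an unadjusted p under 0.05, where 1.77% of all genes were. Cnr1, given again below with the endocannabinoid genes, is a member of this list and has such a p. Their mean ran from 9.78 to 10.01 on old THC arrays and from 9.62 to 9.77 on young vehicle arrays, so the groups touched without overlapping. Calb2, the calretinin gene, differed by 1.08 ± 0.46 (SE) with overlapping groups.

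Glial and vascular lists had medians near 0 over all arrays. These were 0.04 for 13 microglia genes, 0.10 for 14 astrocyte genes, 0.10 for 13 myelin genes, 0.05 for 10 oligodendrocyte precursor genes and 0.01 for 15 genes of endothelium and pericytes. In these 5 lists the only gene with an unadjusted p under 0.05 was Gpr17, given above, where 2.34% of all genes were lower with one. Of other tissue lists, the medians were 0.14 for 15 genes of meninges and fibroblasts, 0.23 for 12 thalamus genes, 0.32 for 6 midbrain dopamine neuron genes and 0.05 for 9 striatum genes, with none at an unadjusted p under 0.05. Some of these moved with the slide or with 1 array. The myelin median was 0.40 within slide 1, 0.49 within slide 4 and 0.49 with slide as a fixed block, and −0.07 without old THC array 1. The oligodendrocyte precursor median was 0.38 within slide 1 and 0.17 within slide 4, and the microglia median was −0.29 within slide 4. Striatum markers gave 1.35 and 0.71 within slides 1 and 4, and −0.21 without old THC array 1. The thalamus median was 0.00 without old THC array 1 and 0.48 with slide as a fixed block, and that of dopamine neurons was 0.16 without old THC array 5 and 0.97 with the block. Meninges and fibroblasts gave −0.03 without young vehicle array 3. The thalamus gene Slc17a6, a vesicular glutamate transporter, differed by 0.99 ± 0.50 with overlapping groups.

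Cnr1, the receptor of THC, was higher in old THC tissue without passing the test. It had 5.94, 6.48, 5.76, 6.06 and 5.72 on old THC arrays, against 5.04, 5.51 and 5.59 on young vehicle arrays. The groups did not overlap, and the difference was 0.61 ± 0.22 (SE, limma adjusted p = 0.996), with 0.90 within slide 1 and 0.13 within slide 4. Old vehicle arrays spread from 5.11 to 6.20 and young THC arrays from 5.28 to 5.50. Of 8 measured genes of the endocannabinoid system it was the only one with an unadjusted p under 0.05, where 1.77% of all genes were higher with one, and the list median was 0.01. Napepld, an enzyme of anandamide synthesis, differed by 0.18 and Abhd6, which hydrolyses the endocannabinoid 2-arachidonoylglycerol, by −0.17.

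Genes of synapses and ion channels differed mostly in single members, and their list medians, given below, were small. Slc17a7, the main vesicular glutamate transporter of hippocampal pyramidal cells, had 12.44, 12.61, 12.60, 12.53 and 12.52 on old THC arrays, against 13.09, 12.72 and 12.89 on young vehicle arrays. Its groups did not overlap, and it differed by −0.36 ± 0.15. The vesicle genes Syn1 and Syp differed by −0.12 and −0.06. The potassium channel genes Kcna1 and Kcnj6 were higher by 0.83 ± 0.24 and 0.75 ± 0.25, with no overlap between groups, and were the 2 of 20 channel genes with an unadjusted p under 0.05, where 1.77% of all genes were higher with one. Within slides Kcna1 gave 0.85 and 0.21 and Kcnj6 gave 0.52 in both.

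Among receptors and scaffolds, the GABA-A subunit genes Gabrb2 and Gabra3 differed by 0.43 and −0.42, the scaffold gene Homer2 by −0.40 and Dlg4, which encodes a postsynaptic density protein, by −0.22. List medians were 0.02 for 16 genes of vesicle release, −0.09 for 14 postsynaptic scaffold genes, 0.08 for 16 glutamate receptor genes, 0.03 for 7 GABA-A receptor genes and 0.05 for 20 potassium channel genes. Of the 14 scaffold genes 11 were lower, where 54.4% of all genes were. Their median was small but stayed below 0 in 31 of 31 alternatives, at −0.16 to −0.04. Of 6 neurotrophin genes, with a median of −0.06, the growth factor gene Bdnf differed by −0.13 ± 0.20 and Ngfr by 0.48.

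Chromatin genes had medians near 0 as well, at −0.03 for 14 histone deacetylases, −0.05 for 14 genes of histone acetyltransferases and CREB, and 0.00 for 8 genes of DNA methylation. In these lists the acetyltransferase gene Kat2a differed by −0.36 and the CREB coactivator gene Crtc2 by 0.46. Gadd45b, an activity-induced gene tied to DNA demethylation, differed by −0.51 and Uhrf1, which guides maintenance methylation, by −0.52, both with an unadjusted p under 0.05. Sox4 was the only one of 8 genes of adult neurogenesis with such a p, at −0.41, and the list median was −0.01. Of all genes, 2.34% were lower with such a p.

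The remaining lists had medians between −0.12 and 0.10. They were −0.12 for 15 genes of cholesterol synthesis, −0.08 for 22 proteasome genes, −0.05 for 17 genes of collagens and matrix, −0.03 for 26 genes of oxidative phosphorylation, −0.01 for 17 heat shock genes, 0.00 for 16 genes of MHC class I and antigen processing, 0.01 for 15 genes of the interferon response, 0.03 for 14 genes of the glucocorticoid response, 0.07 for 13 lysosome genes and 0.10 for 15 circadian clock genes. Of the 22 proteasome genes 18 were lower, where 54.4% of all genes were. Their median was small but stayed below 0 in 31 of 31 alternatives, at −0.13 to −0.04. In these 10 lists only 1 gene had an unadjusted p under 0.05. It was a proteasome gene and was lower, where 2.34% of all genes were lower with one.

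**Figure D5:**
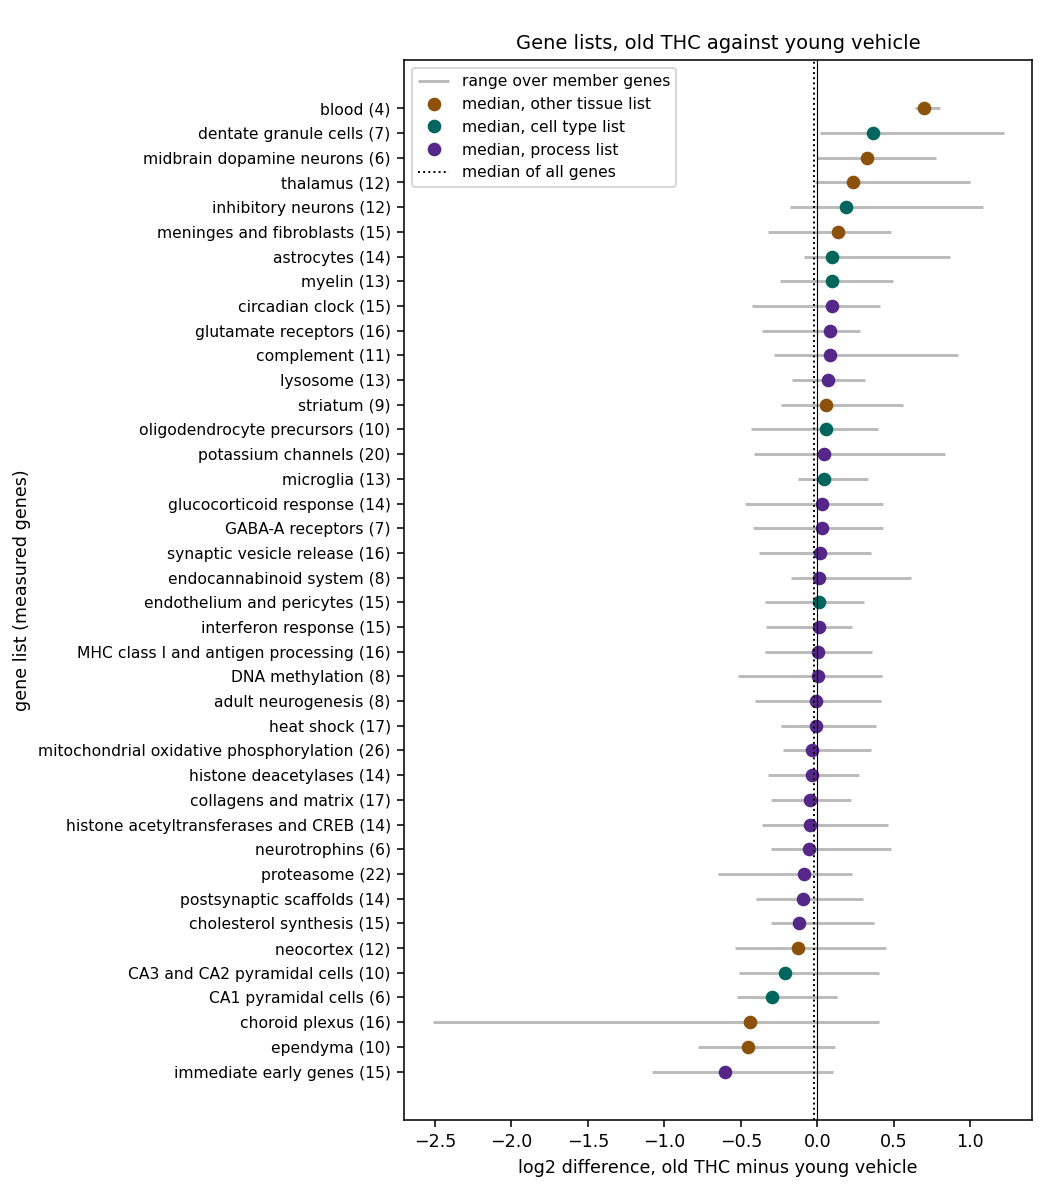
Median log2 difference, old THC minus young vehicle, for 40 gene lists (points, coloured by kind of list) with the range over member genes (lines) and the number of measured genes in parentheses. The dotted line is the median of all genes at −0.02. Blood lies farthest to the right and immediate early genes farthest to the left.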

How the data were processed

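Hippocampal total RNA was biotin-labelled for Illumina bead arrays, per the labels. The authors deposited 1 log2 intensity for each probe on each array, and the values show that arrays had not been normalized to each other. A detection p-value stands beside each, per the file headers. On 1 array 26 detection p-values were text and were treated as missing (interpolated for background correction). The submitters' processing notes name Partek without a version. Its settings, the background step and the scanner's software were not given in the sources used here. Of 45281 probes, 34885 had a single gene symbol, 18 had several and 10378 had none, and 0 symbols needed updating.

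Background correction and quantile normalization used neqc with an offset of 16 (limma 3.58.1, R 4.3.3), on whose scale differences of dim probes are understated. A probe was tested where its detection p was under 0.05 on 3 or more of 16 arrays. This kept 22625 probes, of which 19006 had a single symbol and stood for 12020 genes. limma was fitted to all 16 arrays with a mean for each group and moderated variances, and two-sided p-values were adjusted by Benjamini-Hochberg over all probes (under 0.05 passes). Scripts were tested on simulated data. Exact two-sided permutation tests used the 8 arrays compared. A probe detected on no array of a group gives only a bound, computed from the lowest detected signal of each array.

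Each gene was represented by its brightest probe. The text names the 12 genes of smallest p per direction, 10 per direction for the other 8 arrays, the 2 members of smallest p per direction from a described list, and Cnr1, Ttr, Kl, Bdnf, Syn1, Syp and Dlg4. Genes that separate old from young arrays, or old THC arrays from all others, and further immediate early and complement genes were named after their values were seen. Of the genes so chosen on the other 8 arrays, 1 is not reported here. The members and the 40 lists were chosen with earlier results of these data known. Alternatives were other normalizations and filters, slide as a block, variance and weighting options, fewer arrays, a choroid plexus covariate, other probes and each array left out. The plots were made in Python 3.11.15 with matplotlib 3.10.9.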

Additional observations from a re-analysis of the deposited data

Results flagged for a closer look

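On 324 sets of 5 old arrays (162 named genes in 2 groups) 21 had 1 array farther from its neighbours than 0.71 of the group's range, the critical value for 5 arrays, and chance flags about 1 in 20 such sets. In old THC tissue there were 8. Old THC array 1 was low for Egr4 at 8.05 (others 8.99 to 9.21) and for the endocannabinoid hydrolase gene Abhd6 at 5.40 (others 7.08 to 7.33). Old THC array 3 was low for Thoc2 at 7.18 (others 7.57 to 7.71) and high for the interferon-induced gene Gbp3 at 6.91. Old THC array 4 was low for the precursor gene Cspg4 at 5.23 and high for the microglia gene Gpr34 at 6.54 and the channel gene Kcnh3 at 8.52. Old THC array 5 was low for Homer2 at 9.95.

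In old vehicle tissue there were 13. Array 3 was high in 5 genes: Ttr at 13.90 (others 5.52 to 7.62), the choroid plexus gene Folr1 at 5.15, Bok at 10.48, Milr1 at 4.98 and Cd59a at 8.42. Array 4 was low in 4 genes: Egr3 at 10.61, C1qb at 8.44, Kcna1 at 7.20 and Sort1 at 12.87. Array 1 was high for Gabra3 at 6.85 and Iqsec3 at 11.48, array 2 for Pbk at 4.52 and array 5 for Bgn at 9.73.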

How the results depend on the processing

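Of 22625 probes, 1 passed in old THC against young vehicle, and that count was 1, for Mocs1, with quantile normalization alone, the values of the series matrix, no filter or a stricter one, slide as a random block, array weights, an adjusted p under 0.1 and 1 probe per gene. It was 2 with slide as a fixed block, Mocs1 and Zfhx3 (1.33, against 0.54 without the block). It was 0 with a mean-variance trend and robust variances (981 at an unadjusted p under 0.05), with only the arrays of both groups (1011), with the choroid plexus covariate (1007), without slide 1 (1111), without the 3 arrays high in choroid plexus genes (2268, chosen after seeing the data), and 0 to 0 over the fits that left out each array in turn. Mocs1 was higher in 31 of 31 alternatives, by 0.54 to 0.85, with adjusted p from 0.00137 to 0.991, and passed in 8 of 29 with a test. On the other 8 arrays 0 probes passed, and 1 passed with slide as a fixed block and 1 as a random block. Of 5063 values of 162 named genes, 4867 kept their sign and 0 called differences reversed. The lists kept theirs in 1089 of 1240. The median of immediate early genes ran from −1.23 to −0.32 and stayed below 0 in 31 of 31. Pairing by replicate number was not possible because the labels give none, and slides 1 and 4, which hold both groups, gave the blocked and within-slide values. The number of arrays and signal near background limit the dim genes, Gal, Tac2, Lims1, Plin2 and Pbk among them.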
